A study of Mus musculus with 2 samples.

Results

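Mbnl2 tags were counted on 5 mouse genes, the 3 SERCA pumps Atp2a1, Atp2a2 and Atp2a3 and the 2 small pump regulators Sln and Pln, out of 22380 protein-coding genes in the mm9 GENCODE annotation. The members were taken by name, and a tag counted when it overlapped the gene on its strand. The tags come from HITS-CLIP, in which a protein is crosslinked with UV light to the RNA it touches, the RNA is trimmed with RNase A, and the short RNA pieces that are immunopurified with the protein are sequenced. Quadriceps muscle of WT mice and of Mbnl1 KO (Mbnl1-/-) mice, both 15 to 16 weeks old and labelled C57BL/6, was precipitated with the Mbnl2 antibody mAb 3B4. The Mbnl2 gene was intact in both genotypes, and the comparison asks where Mbnl2 sits on RNA when its paralogue Mbnl1 is missing. Tags of 3 mice were merged into 1 table per genotype, so neither the variation among animals nor a test of the genotypes could be had. The methods name high (38.6 U/ml) and low (0.0386 U/ml) RNase A, and no label tells which of them a tag comes from.

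SERCA pumps sit in the membrane of the sarcoplasmic reticulum and spend ATP to return calcium from the cytosol to the store, which lets a muscle fibre relax. Atp2a1 encodes SERCA1, the pump of fast skeletal fibres, Atp2a2 encodes SERCA2, the pump of slow fibres, heart and most other cells, and Atp2a3 encodes SERCA3, found mainly in blood cells, endothelium and epithelia. Sarcolipin (Sln) and phospholamban (Pln) are short membrane peptides that bind the pumps and slow calcium uptake. Mbnl proteins bind RNA at YGCY motifs, where Y is C or T, and alternative splicing of Atp2a1 exon 22, which changes the end of the SERCA1 protein, is a well-known splicing defect of myotonic dystrophy muscle.

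The sequences under sites of different kinds are shown first, with and without that motif. Each is read from mm9 on the gene's own strand, 5′ to 3′, with the 4 forms of YGCY in capitals: CGCC (C at both ends), CGCT (ending in T), TGCC (starting with T) and TGCT (T at both ends). They were chosen to show each kind of site and not as a sample of all clusters, whose motif counts follow further on. The first pair lies under the 2 tallest peaks of the Atp2a1 last exon, the next 3 under the larger coding cluster of exon 8 and both coding clusters of exon 15, and the next pair under the intronic clusters of Atp2a1. The following pair sets a coding site of Atp2a2 beside the matching bases of Atp2a1, and the last is a coding run that all 3 pumps share without a mismatch.
Atp2a1 exon 23, first peak, chr7:133589543-133589572, minus strand: tcttcagccaaagctgaggcactgaccctt
Atp2a1 exon 23, second peak, chr7:133589464-133589493, minus strand: tcagcaaccCGCTctccctccgaaccttgt
Atp2a1 exon 8, chr7:133600412-133600441, minus strand: gccaccgagcaggacaagactccactgcag
Atp2a1 exon 15, larger cluster, chr7:133592150-133592179, minus strand: tttgacgatcTGCCcctggccgagcagcgg
Atp2a1 exon 15, smaller cluster, chr7:133592302-133592331, minus strand: tcacaggctctatccagctgtgtcgtgatg
Atp2a1 intron 22, chr7:133590017-133590046, minus strand: cCGCCcTGCCccagcTGCTgtacccTGCCg
Atp2a1 intron 10, chr7:133596705-133596734, minus strand: tcccaaTGCCtgtcTGCTtctcccCGCTct
Atp2a1 exon 9, chr7:133600023-133600052, minus strand: ccTGCTgtcatcaccaccTGCTtggctttg
Atp2a2 exon 8, chr5:122919491-122919520, minus strand: ccTGCTgtcatcaccaccTGCTtagctctt
Atp2a3 exon 15, chr11:72795390-72795419, plus strand, the same 30 bases as Atp2a1 exon 16 at chr7:133591707-133591736 and Atp2a2 exon 15 at chr5:122910016-122910045: acaacaacatgaagcagttcatcCGCTacc

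Depth was uneven, with 343554 tags (5176203 reads) for WT and 476543 tags (50329234 reads) for Mbnl1 KO, so levels are given as tags per 1000000 tags of the table. Tags of which at least 70% is the same base made up 44.0% of the WT and 17.0% of the Mbnl1 KO tags on assembled chromosomes, yet the 5 genes held only 1 of them on their strand, a WT tag of Atp2a2. Each level is divided by all tags of its table, and the factor that multiplies a raw tag ratio was 0.721 with all tags and 0.492 without those of mostly the same base. Ratios of tags in genes that hold none of them are thus lower by the same proportion when they are left out. Such values are given for the 5 genes together, for Atp2a1 and Atp2a2 and their regions, and for the exons, intron and bins of Atp2a1 whose interval lay above 1, and the part of these tags in the other ratios was not tested. The 8 skeletal muscle marker genes all passed 20 tags (817 WT and 2883 Mbnl1 KO tags together), while the 4 heart muscle markers had 7 and 3 tags, with Nppa at 0 in both, the 4 slow fibre markers 11 and 21, the 2 blood markers 11 and 8, the 2 endothelial markers 29 and 73, the 2 fibroblast markers 129 and 486 and the 2 fat markers 1 and 13. Members of a list could differ, as the slow myosin Myh7 had 4 WT and 17 Mbnl1 KO tags but slow troponin Tnni1 6 and 1, and Cdh5 of endothelium 13 and 55 but Pecam1 16 and 18. The part of cell makeup in the ratios was not tested. The targeted gene gave no usable check of the labels, because the exon with the start codon of Mbnl1 held only 5 tags in WT and 2 in Mbnl1 KO, at a ratio of 0.288 with an interval from 0.0275 to 1.76. The whole Mbnl1 gene held 100 tags in WT against 452 in the knockout, which gives a ratio of 3.26 (interval 2.62 to 4.09). In such data a tag level combines RNA amount, the amount of the precipitated protein and binding. The study reports more Mbnl2 protein in Mbnl1 KO skeletal muscle, and its part in the ratios was not tested. In whole muscle fewer cells of a type and less RNA per cell cannot be told apart.

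Atp2a1 carried most of the tags. The 5 genes together had 131 WT and 450 Mbnl1 KO tags, of which 89.3% and 87.3% lay in Atp2a1. Their summed level was 381 tags per 1000000 in WT and 944 in Mbnl1 KO, a ratio of 2.48 (interval 2.03 to 3.03), or 1.70 (1.40 to 2.09) without tags of mostly the same base. Ratios are Mbnl1 KO over WT, and their 95% intervals (Clopper-Pearson, on the part of the pooled tags that came from Mbnl1 KO) cover counting error alone and speak of these tables rather than of the genotypes.

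Of the 5 genes, 2 reached 20 pooled tags, Atp2a1 and Atp2a2, and both had a ratio of at least 2 with an interval above 1. This is to be read against the background, since among the 3888 protein-coding genes that reached 20 tags 41.6% had a ratio of at least 2, 38.6% had an interval above 1 and only 3.76% had a ratio of 0.5 or lower, and the median gene stood at 1.75. Atp2a1 and Atp2a2 had higher ratios than 69.4% and 85.0% of those genes. With tags of mostly the same base left out the ratio was 1.65 (1.34 to 2.05) for Atp2a1 and 2.58 (1.20 to 6.37) for Atp2a2, and when tags of 1 read were left out as well it was 1.19 (0.911 to 1.56) and 1.94 (0.749 to 6.40), where the share of genes at or past 2 fell to 29.1% and 22.6%. Both genes thus moved in the direction in which most genes moved, and neither stood at the edge of the distribution.

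**Figure D1:**
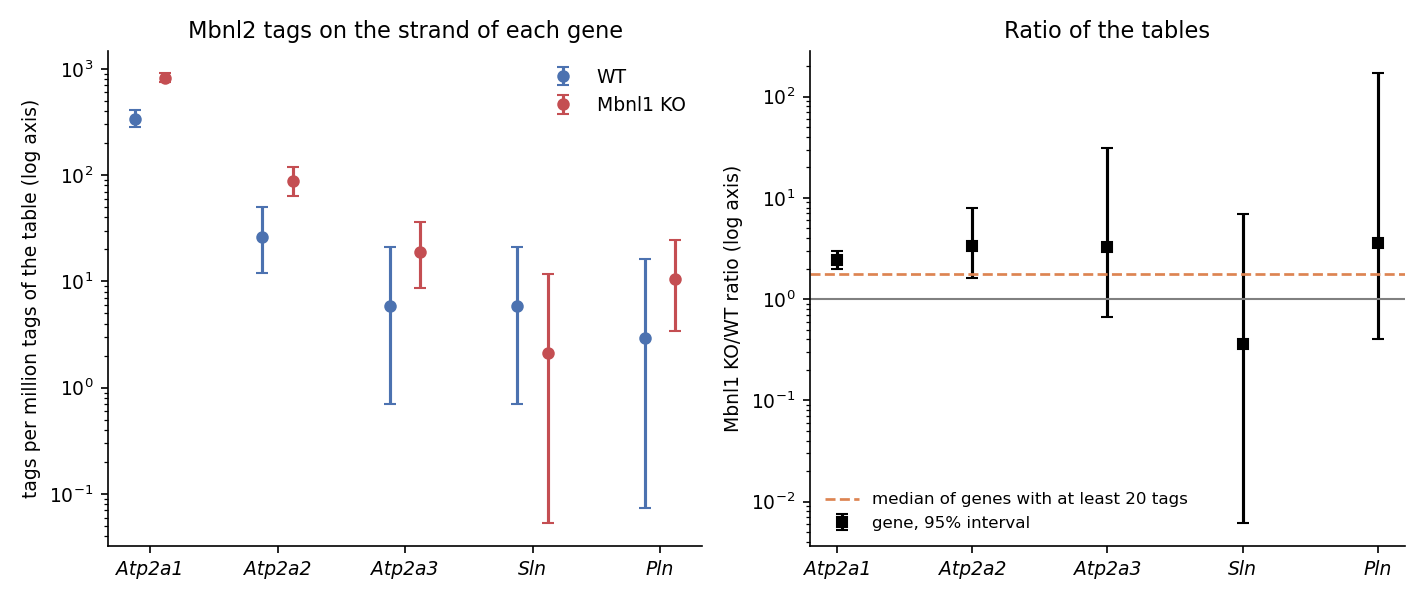
Left, tags per 1000000 tags of the table (log axis) on the strand of each gene in WT (blue) and Mbnl1 KO (red), with exact 95% Clopper-Pearson intervals. Right, the Mbnl1 KO/WT ratio (log axis) with its 95% interval, where the grey line is 1 and the dashed line the median of genes with at least 20 tags. The intervals of Atp2a1 and Atp2a2 lie above 1, and those of Atp2a3, Sln and Pln, which rest on 1 to 9 tags per table, span it.

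Atp2a1 (ENSMUSG00000030730.6, chr7:133589372-133606622, minus strand, 23 exons, a protein of 994 residues) had 117 tags in WT and 393 in Mbnl1 KO muscle. That is 341 tags per 1000000 (interval 282 to 408) and 825 (745 to 910), a ratio of 2.42 (1.97 to 3.00). The gene ranked 14th among protein-coding genes by WT tags and 8th by Mbnl1 KO tags. The genes with the most similar pair of levels, by distance of the log2 tags per 1000000 over the 2 tables among 11557 genes, were Unc45b, a myosin chaperone (332 and 839 tags per 1000000), Myh4, the myosin of the fastest fibres (338 and 770), and Col1a1, a collagen chain of connective tissue (358 and 988). Opposite-strand tags over Atp2a1 numbered 1 in WT and 3 in Mbnl1 KO, so nearly all signal lay on the coding strand.

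Reads behind the tags gave a similar size. Atp2a1 tags stood for 3971 WT and 84854 Mbnl1 KO reads, which is 767 and 1686 reads per 1000000 reads and a read ratio of 2.20. Tags backed by only 1 read made up 39.3% of the WT and 31.6% of the Mbnl1 KO tags of the gene, against 79.0% and 59.5% of the whole tables. The tags lay at 110 distinct positions in WT and 279 in Mbnl1 KO, and 43 positions occurred in both, which is 39.1% of the WT and 15.4% of the Mbnl1 KO positions.

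The ratio of Atp2a1 depended on the length of the tags. Tags under 30 nt numbered 93 in WT and 186 in Mbnl1 KO, a ratio of 1.44 (1.12 to 1.87), and tags of at least 30 nt numbered 24 and 207, a ratio of 6.22 (4.06 to 9.93). These ratios are scaled to all tags of each table. Scaled to the tags of the same length class instead, the ratio was 1.18 (0.914 to 1.53) under 30 nt, where the interval included 1, and 8.56 (5.59 to 13.7) at 30 nt or more. Long tags were 20.5% of the WT and 52.7% of the Mbnl1 KO tags of the gene, whereas in the whole tables, tags of mostly the same base included, their share went the other way, 45.0% in WT and 32.7% in Mbnl1 KO. Over the 3888 compared genes, without tags of mostly the same base, it rose as in Atp2a1, from 13.9% in WT to 35.5% in Mbnl1 KO. Scaled to all tags, and summed over the 3888 compared genes without tags of mostly the same base, the ratio was 1.61 (1.59 to 1.63) under 30 nt and 5.48 (5.34 to 5.62) at 30 nt or more. How the length of the tags bears on the ratio of Atp2a1 was not tested.

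**Figure D2:**
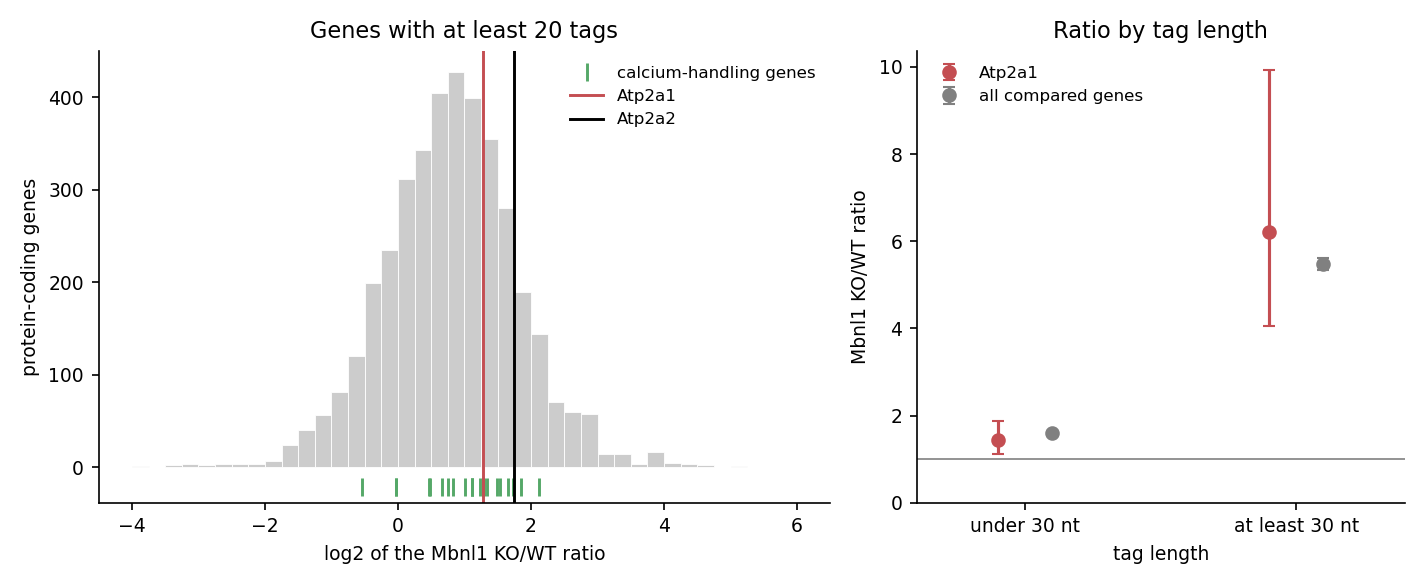
Left, the number of protein-coding genes at 20 tags or more by the log2 of their Mbnl1 KO/WT ratio, with green marks for 23 calcium-handling genes and lines for Atp2a1 (red) and Atp2a2 (black); right, the ratio with its 95% interval for tags under 30 nt and of at least 30 nt in Atp2a1 (red) and summed over all compared genes (grey). Atp2a1 and Atp2a2 sit in the upper part of a distribution whose median is 1.75, and the ratio of long tags is above that of short tags both in Atp2a1 (6.22 and 1.44) and in the summed genes, which include it (5.48 and 1.61).

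Tags of Atp2a1 were exonic for the most part. In WT 99 of 117 tags (84.6%, interval 76.8 to 90.6) and in Mbnl1 KO 330 of 393 tags (84.0%, 80.0 to 87.5) lay in exons, which make up 20.2% of the gene. The 2 tables did not differ in this share by more than counting error. With tags placed by their midpoint, the exonic share was 13.3% in WT and 25% in Mbnl1 KO for the median compared gene, and 88.3% and 85.0% of genes had a lower share than Atp2a1. All rows of both tables are unspliced alignments, so tags that cross an exon junction are not counted here.

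The 3′UTR of Atp2a1 had the densest signal of the gene. It is 306 nt long, 1.77% of the gene, and held 30 WT tags (25.6% of the gene's tags, interval 18.0 to 34.5) and 120 Mbnl1 KO tags (30.5%, 26 to 35.3), or 98.0 and 392 tags per kb. Its ratio was 2.88 (1.92 to 4.46). The coding sequence held 61 and 189 tags (52.1% and 48.1%), a density of 20.4 and 63.3 tags per kb, with a ratio of 2.23 (1.67 to 3.03). Introns, 79.8% of the gene, held 18 and 63 tags, or 1.31 and 4.58 per kb, and a ratio of 2.52 (1.48 to 4.53). The 5′UTR held 8 and 21 tags, and its ratio of 1.89 had an interval that included 1 (0.805 to 4.94). Outside the 3′UTR the gene had 87 and 273 tags (ratio 2.26, 1.77 to 2.91), and this interval overlapped that of the 3′UTR. Without tags of mostly the same base the ratio was 1.97 (1.31 to 3.04) in the 3′UTR and 1.54 (1.21 to 1.99) outside it. In the coding sequence it then was 1.52 (1.14 to 2.07), in introns 1.72 (1.01 to 3.09) and in the 5′UTR 1.29 (0.549 to 3.37). Outside the 3′UTR the interval reached below 1 when scaled by the median pooled cluster (1.27, 0.994 to 1.64), with tags of at least 2 reads (1.32, 0.966 to 1.84) and with the latter and no tags of mostly the same base (1.11, 0.811 to 1.55). At these settings the 3′UTR stood at 1.62 (1.08 to 2.50), 1.64 (1.00 to 2.82) and 1.38 (0.841 to 2.37).

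**Figure D3:**
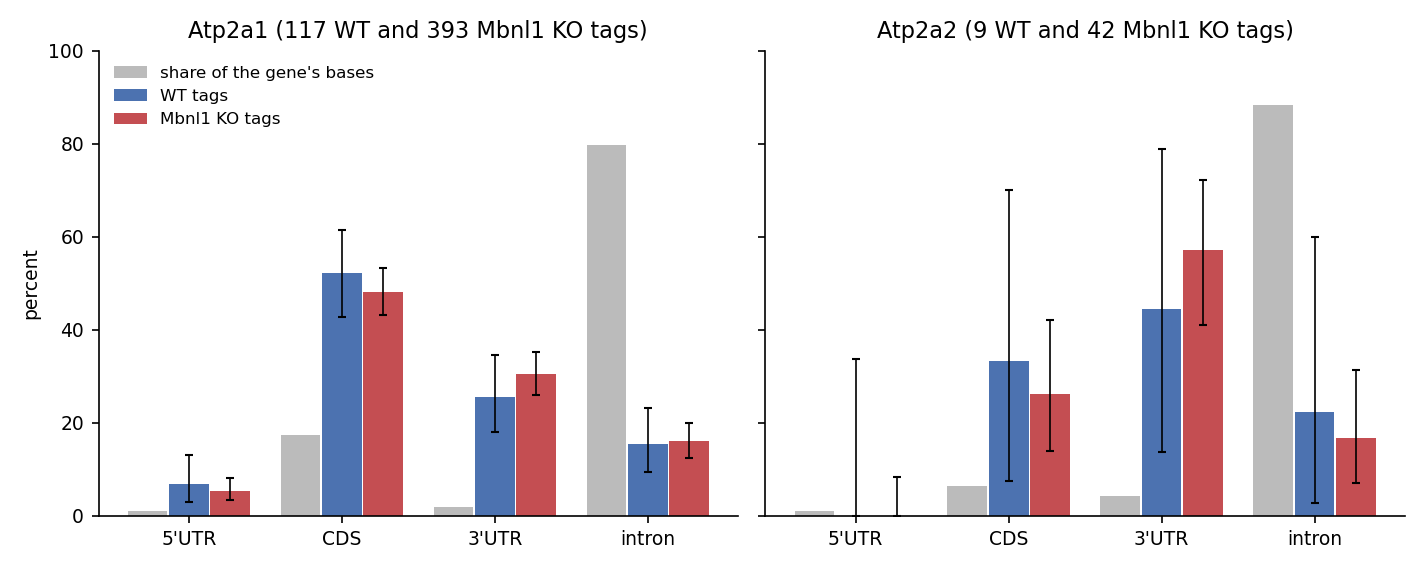
Share of each gene's bases (grey) and of its WT (blue) and Mbnl1 KO (red) tags in the 5′UTR, coding sequence (CDS), 3′UTR and introns of Atp2a1 and Atp2a2, with exact 95% intervals. In both genes the 3′UTR holds far more of the tags than of the bases, 25.6% and 30.5% against 1.77% in Atp2a1 and 44.4% and 57.1% against 4.20% in Atp2a2, and introns far less.

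Reads were less even than tags across these regions. The 3′UTR tags stood for 195 WT reads and 28785 Mbnl1 KO reads, 37.7 and 572 reads per 1000000 and a read ratio of 15.2, while the read ratio was 1.50 in the coding sequence, 1.74 in introns and 0.766 in the 5′UTR. Few tags carried many of these reads, as 1 coding tag held 11880 of the 84854 Mbnl1 KO reads of the gene and 1 tag held 6324 of the 28785 in the 3′UTR. The median was 2 reads per tag in WT and 8 in Mbnl1 KO in the 3′UTR, against 3 and 4 in the coding sequence. A read count can hold amplification copies, and no interval was computed for it.

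The last exon, exon 23 (chr7:133589372-133589640), held 29 WT tags and 120 from Mbnl1 KO, a level of 84.4 against 252 tags per 1000000 (ratio 2.98, 1.98 to 4.64). Its tags formed 3 peaks in Mbnl1 KO, of which WT had the first 2 and only scattered tags at the third. In 50-nt bins counted from the start of the exon, with tags placed by their midpoint, nt 68 to 117 held 12 tags in WT and 46 in Mbnl1 KO (ratio 2.76, 1.44 to 5.73). The next bin, nt 118 to 167, held 12 and 35 tags, a ratio of 2.10 (1.07 to 4.45). Toward the end of the exon, nt 168 to 217 held 3 and 26 tags (6.25, 1.91 to 32.3) and nt 218 to 267 held 1 and 13 (9.37, 1.41 to 398). The 2 front peaks were present in both genotypes. The bin edge at nt 168 cuts the second peak, and WT depth still reached 13 tags within nt 168 to 217. The low number of WT midpoints in that bin thus depends on where the edge lies. In nt 218 to 267 the depth reached 2 tags in WT and 16 in Mbnl1 KO. The intervals of all 4 bins overlapped. Without tags of mostly the same base, exon 23 stood at 2.04 (1.35 to 3.17), and of the 4 bins only nt 168 to 217 kept an interval above 1 (4.26, 1.31 to 22.0), against 1.89 (0.983 to 3.91), 1.43 (0.727 to 3.04) and 6.40 (0.961 to 272) in the others.

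The deepest base lay in different peaks in the tables, though the WT depths at the 2 peaks, 13 and 11 tags, were close. In WT it lay in the second peak, at 133589473 to 133589483, where 13 WT tags overlapped, with 32 Mbnl1 KO tags at the middle of that stretch. In Mbnl1 KO it lay 78 nt upstream in the first peak, at 133589556 to 133589557, where 42 Mbnl1 KO and 11 WT tags overlapped. The first peak has none of the 4 YGCY words in its 30-nt window, and the second has 1, a CGCT, in the sequences given above. Over the whole cluster of 203 nt there were 2.

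**Figure D4:**
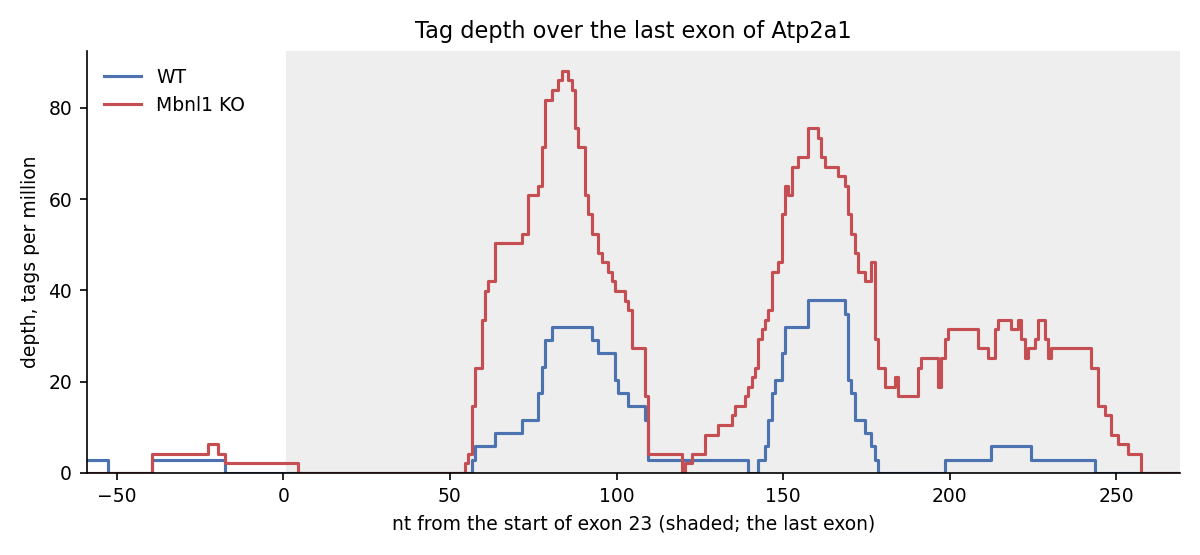
Depth of tags per 1000000 tags of the table in WT (blue) and Mbnl1 KO (red) from 59 nt before the start of exon 23 of Atp2a1 to its end, with the exon shaded. The first 2 peaks occur in both tables, at 32.0 against 88.1 and at 37.8 against 75.5 tags per 1000000, and the third stands mainly in Mbnl1 KO.

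Along the rest of Atp2a1, 22 of 23 exons and 10 of 22 introns had a tag in either table. Of the 19 exons with tags in both, 17 had a ratio above 1, with a median of 2.62 and a range from 0.288 at exon 13 (5 WT and 2 Mbnl1 KO tags, interval 0.0275 to 1.76) to 5.05 at exon 3 (1 and 7 tags, 0.648 to 227). The median compared gene stood at 1.75, so most genes had a ratio above 1 as well. Without tags of mostly the same base exon 4 also fell below 1, at 0.984 (0.210 to 6.08). Besides exon 23, the interval lay above 1 at exon 8, with 11 and 40 tags (2.62, 1.32 to 5.67), and at exon 15, with 7 and 28 (2.88, 1.23 to 7.82). Both intervals included 1 without tags of mostly the same base, at 1.79 (0.901 to 3.87) and 1.97 (0.840 to 5.34). Of the introns, only intron 12, 2104 nt long, had an interval above 1, with 1 WT and 14 Mbnl1 KO tags (10.1, 1.54 to 427), the highest ratio of any exon or intron with tags in both tables, and it was 6.89 (1.05 to 291) without tags of mostly the same base. Exon 14 had 2 WT tags and none in Mbnl1 KO, where 0 tags allow a level of up to 6.30 per 1000000. Exon 22 itself, 42 nt long, had 1 WT tag and 0 Mbnl1 KO tags.

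**Figure D5:**
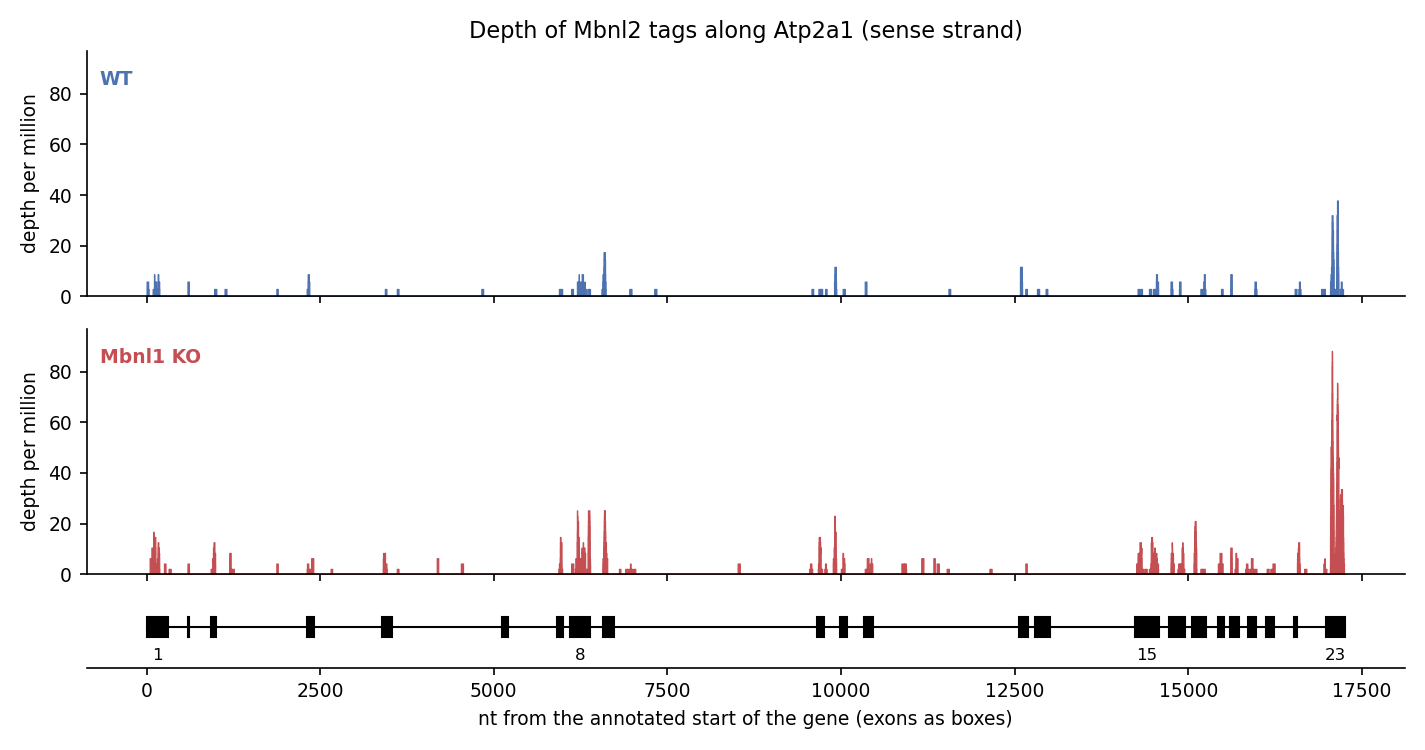
Depth of tags per 1000000 tags of the table along Atp2a1 in WT (blue) and Mbnl1 KO (red), by distance in nt from the annotated start of the gene, with exons as boxes and exons 1, 8, 15 and 23 numbered. Tags stack on exons, above all on the last, where the depth reaches 37.8 in WT and 88.1 in Mbnl1 KO, and tags are sparse in the long introns.

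Runs of overlapping tags with at least 5 tags, pooled over both tables, are called clusters. Atp2a1 had 21 of them, of which 16 lay in coding sequence, 2 in the 5′UTR, 2 in introns and 1 in the 3′UTR. WT tags occurred in 20 of the 21. Only 4 clusters had 5 or more WT tags, and the other 17 reached the minimum only with Mbnl1 KO tags, so their ratios are partly set by that choice and no count of them is given. The ratios of the 4 ran from 1.44 to 2.98, and a cluster in exon 4 had 3 tags in each table. The cluster without a WT tag, in exon 17, had 10 Mbnl1 KO tags, or 21.0 per 1000000, and 0 WT tags allow a level of up to 8.73. It reached the minimum through Mbnl1 KO alone, so this contrast is partly set by the choice of clusters. The whole of exon 17 held 4 tags in WT against 12 in the knockout. Its interval, 0.655 to 9.20 around 2.16, included 1. Some Mbnl1 KO tags of the cluster also have an exact place in Atp2a3. A further cluster lay at the 3′ end of exon 8, with 1 WT and 12 Mbnl1 KO tags, beside a larger cluster in the same exon with 9 and 26 tags (2.08, 0.946 to 5.05).

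The intronic clusters held the densest motifs. In intron 22 a cluster of 2 WT tags and 6 from Mbnl1 KO (2.16, 0.387 to 21.9) began 2 nt inside exon 22, and its 30-nt window, 12 nt past the exon, has 4 YGCY words. In intron 10 a cluster of 4 WT and 11 Mbnl1 KO tags (1.98, 0.587 to 8.54) has 3 in its window, 65 nt before exon 11. Neither ratio could be told from 1, and tags were seen at both sites in both genotypes. For comparison, 34.9% of all 464 intron windows of that length in the gene hold at least 1 YGCY and 7.97% at least 2.

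Of the 19 exonic clusters of Atp2a1, 9 windows (47.4%) hold at least 1 YGCY, against 38.7% of the 111 exon windows of the gene. By region the clusters with a YGCY were 2 of 2 in introns, 9 of 16 in coding sequence, 0 of 2 in the 5′UTR and 0 of 1 in the 3′UTR. Tag by tag, a YGCY lay within 55 of 117 WT tags (47.0%, interval 37.7 to 56.5) and 193 of 393 Mbnl1 KO tags (49.1%, 44.1 to 54.2). Within each region these shares are set beside the share of all windows there of the region's median tag length. In the coding sequence it was 50.8% of WT tags (37.7 to 63.9) against 37.3% of windows and 57.7% of Mbnl1 KO tags (50.3 to 64.8) against 41.2%. In introns it was 66.7% (41.0 to 86.7) against 28.2% and 61.9% (48.8 to 73.9) against 35.4%, and the intervals of introns and coding sequence overlapped. In the 3′UTR it was 40% and 37.5% against 21.4% and 28.9%, and the intervals, 22.7 to 59.4 and 28.8 to 46.8, reach down to or near the share of windows. Overlapping tags share their bases and are not independent, and a motif match describes the sequence only.

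Atp2a2 (ENSMUSG00000029467.8, chr5:122903531-122952183, minus strand, 21 exons, 1047 residues in the annotated transcript) had 9 tags in WT and 42 in Mbnl1 KO muscle. Its level was 26.2 tags per 1000000 (12 to 49.7) in WT and 88.1 (63.5 to 119) in Mbnl1 KO, a ratio of 3.36 (1.61 to 7.86). With all tags of the gene taken per kb of exon, Atp2a2 stood at 4.62 and 15.5 tags per 1000000, against 97.8 and 237 for Atp2a1. Its reads numbered 335 and 8314, a read ratio of 2.55. Of the 3 genes nearest to it by level, Acvr1b, an activin receptor, and Faf1 had the very same 9 and 42 tags, and Cpd, a carboxypeptidase, had 9 and 43. Its antisense strand had 2 and 5 tags.

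The 3′UTR of Atp2a2, 2041 nt and 4.20% of the gene, held 4 of the 9 WT tags and 24 of the 42 Mbnl1 KO tags, a ratio of 4.33 (1.49 to 17.2), or 2.95 (1.01 to 11.7) without tags of mostly the same base. The coding sequence had 3 and 11 tags (2.64, 0.698 to 14.8) and the introns, 42979 nt in all, 2 and 7 (2.52, 0.480 to 24.9), and without those tags the ratios were 1.80 (0.477 to 10.1) and, on 1 and 7 tags, 3.44 (0.442 to 155). Only 7 of 21 exons and 3 of 20 introns had a tag. Exons 20 and 21, which hold the 3′UTR, had 2 WT and 12 Mbnl1 KO tags each.

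Clusters of at least 5 tags numbered 3 in Atp2a2. Under the 3′UTR clusters the mm9 sequence of the minus strand is as follows, with YGCY in capitals, shown because they are the main sites of the gene outside coding sequence.
Atp2a2 exon 21, chr5:122903709-122903738: atttaatgaagtcagaagcagtagacagat
Atp2a2 exon 20, chr5:122906536-122906565: tttacatccgtcttcacgagaggttTGCCt
The exon 21 cluster had 2 WT and 5 Mbnl1 KO tags and no YGCY in its window, and the exon 20 cluster had 0 and 5 tags and 1. The third cluster, in exon 8, had 1 and 6 tags and 2 TGCT words in its window, and the matching 30 bases of Atp2a1 exon 9 carry both words and are identical at 27 of 30 positions. At those bases Atp2a1 had 9 WT and 15 Mbnl1 KO tags, part of a cluster of 9 and 18 (1.44, 0.615 to 3.64). Of the 6 Mbnl1 KO tags of that Atp2a2 cluster, 1 has a second exact place in Atp2a1 exon 9, so not every tag there can be placed in 1 pump. Of the Mbnl1 KO tags of Atp2a2 in coding sequence, 10 of 11 held a YGCY (90.9%, interval 58.7 to 99.8), against 37.8% of windows, and 6 of the 11 tags belong to that 1 cluster. In WT coding sequence 1 of 3 tags did (33.3% against 31.6%), and in the 3′UTR 9 of 24 Mbnl1 KO tags (37.5%, interval 18.8 to 59.4, against 30.9%).

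Reads from a stretch that the pumps share cannot be placed in a gene with certainty. Of the Atp2a2 tags, 0 WT and 2 Mbnl1 KO match another pump gene without a mismatch, and 1 and 4 do with at most 1 mismatch. For Atp2a1 these numbers were 0 and 7 without a mismatch and 4 and 15 with at most 1, out of 117 and 393. With tags left out that have more than 1 exact place in the genome, the ratio was 2.40 (1.94 to 2.98) for Atp2a1 and 3.20 (1.53 to 7.51) for Atp2a2.

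Atp2a3 (ENSMUSG00000020788.9, chr11:72774671-72806546, plus strand, 22 exons) had 2 WT and 9 Mbnl1 KO tags, 5.82 and 18.9 tags per 1000000, with a ratio of 3.24 whose interval included 1 (0.671 to 30.9). Both WT tags were intronic and 8 of the 9 Mbnl1 KO tags were exonic. Its only cluster, 5 Mbnl1 KO tags in exon 15, lies in the stretch printed above that is identical in Atp2a1 exon 16, where 6 Mbnl1 KO and 0 WT tags were placed, and in Atp2a2 exon 15, where 2 and 0 were, 1 of them with 108 reads. Of the 9 Mbnl1 KO tags, 6 match another pump gene without a mismatch and 7 have more than 1 exact place in the genome, which leaves 2 WT and 2 Mbnl1 KO tags and a ratio of 0.721 (0.0523 to 9.95). All 5 tags of the cluster have an exact place in Atp2a1 as well, and 2 of the 5 also have one in Atp2a2, so they cannot be assigned to Atp2a3 with certainty. The 9 tags of the gene together stood for only 17 reads.

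The regulators were nearly free of tags. Sln (ENSMUSG00000042045.5, chr9:53698058-53701651, plus strand), which encodes the 31 residues of sarcolipin, had 2 WT tags and 1 Mbnl1 KO tag, 5.82 and 2.10 tags per 1000000 (ratio 0.360, interval 0.00611 to 6.92). Of the WT tags, 1 lay in the 3′UTR and stood for 1079 reads, the other in the intron for 1 read, and the Mbnl1 KO tag, also in the 3′UTR, for 1 read. By reads Sln was thus at 209 per 1000000 in WT and 0.0199 in Mbnl1 KO, a gap that rests on that 1 tag. Its sequence, with TGCC in capitals, is shown because it carries nearly all Sln reads.
Sln 3′UTR, chr9:53701555-53701578, plus strand: aaagctTGCCagccagtgagcctt

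Pln (ENSMUSG00000038583.6, chr10:53057492-53065805, plus strand), which encodes the 52 residues of phospholamban, had 1 WT tag and 5 Mbnl1 KO tags, 2.91 and 10.5 tags per 1000000 (3.60, 0.403 to 170). The WT tag and 2 of the Mbnl1 KO tags fell on the same place in the 5′UTR, with 2 and 107 reads, and 1 of those Mbnl1 KO tags had the very ends of the WT tag. The other 3 Mbnl1 KO tags were intronic, with 1 read each. The 3′UTR of Pln, 1977 nt long, had 0 tags in both tables, which allows a level of up to 8.73 per 1000000 in WT and 6.30 in Mbnl1 KO. All 5 WT tags on the opposite strand of Pln were of mostly the same base. The shared 5′UTR tag, with TGCT in capitals, is the only Pln site seen in both genotypes.
Pln 5′UTR, chr10:53057563-53057585, plus strand: agcttcaTGCTctgcactgtgac

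With all tags of a gene, intronic ones included, taken per kb of exon, the order of the WT levels was Atp2a1 (97.8 tags per 1000000), Sln (11.3), Atp2a2 (4.62), Pln (1.17) and Atp2a3 (1.10), and that of the Mbnl1 KO levels Atp2a1 (237), Atp2a2 (15.5), Pln (4.23), Sln (4.07) and Atp2a3 (3.58). Of these tags, 3 of the 5 of Pln in Mbnl1 KO and both of Atp2a3 in WT were intronic. Atp2a1 stood apart in both tables. The places of Sln, Pln and Atp2a3, with at most 9 tags each, cannot be told apart, and a tag number this low says little of whether Mbnl2 binds the RNA.

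Other genes of calcium handling give the setting. Of 30 listed, 23 had at least 20 tags, and 15 of the 23 (65.2%) had a ratio of at least 2, none 0.5 or lower and 14 (60.9%) an interval above 1, with a median of 2.16, against 41.6%, 3.76%, 38.6% and 1.75 over all compared genes. General muscle genes were as high, since 6 of the 8 skeletal muscle markers (75%) had a ratio of at least 2 and 7 (87.5%) an interval above 1, with a median of 2.52. The difference between these lists was not tested. Among proteins of the store, 4 of 6 had a ratio of at least 2, such as Casq1, the calcium buffer calsequestrin (19 WT and 83 Mbnl1 KO tags, 3.15, 1.90 to 5.49), and Srl, sarcalumenin (17 and 102, 4.33, 2.57 to 7.71), whereas the channel subunit gene Tmem38a was at 0.978 (14 and 19). Among genes of calcium release, 5 of 9 did, with Trdn, the triadin anchor of the release channel, at 3.60 (50 and 250, 2.65 to 4.99), the release channel Ryr1 at 2.36 (44 and 144, 1.67 to 3.39), and Ryr3 at 0.689 (45 and 43, 0.443 to 1.07). Of the plasma membrane and Golgi pumps and the exchangers, 5 of 6 did, such as the pump Atp2b1 (10 and 39, 2.81, 1.38 to 6.32) and the sodium-calcium exchanger Slc8a3 (15 and 69, 3.32, 1.88 to 6.24). The cytosolic buffer Pvalb was at 2.43 (43 and 145, 1.72 to 3.50), and Stim1, which senses an empty store, at 1.78 (19 and 47, 1.03 to 3.22). Atp2a1, at 2.42, lay near the median of these genes, and Ryr1 and Pvalb had nearly the same ratio.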

How the data were processed

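Mbnl2 HITS-CLIP tables of WT and Mbnl1 KO quadriceps were analysed. Per the study's methods, low quality reads were removed, the rest was aligned to mm9 with BWA (named in the submitters' processing notes, version not given in the sources used here), short sequences and likely PCR copies were discarded, and 3 mice per genotype were merged. The deposited counts, 1 for every unique tag of 18 to 33 nt, give how many reads were collapsed into the tag and are not normalized. Identical positions occurred at most 3 times in WT and 6 times in Mbnl1 KO.

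Tags were counted by overlap with GENCODE vM1 genes of mm9 on the gene's strand and assigned to the region holding most of their bases (ties going to 3′UTR, then CDS, 5′UTR, other exon, intron). Python 3.11.15, numpy 2.4.6, pandas 2.3.3, scipy 1.17.1, pysam 0.24.0, matplotlib 3.10.9 and samtools 1.23.1 were used. Intervals are exact at 95% and cover counting error only; where 0 tags were counted, 3 tags give the upper limit. Labels give 1 table per genotype, so no p-value was computed. Counting and intervals were checked on simulated counts.

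The members, lists and tests were chosen with earlier results of these data known. Named genes are the 5 members, calcium-list genes with at least 20 pooled tags, of which a few examples are printed, and the 3 genes nearest to Atp2a1 and Atp2a2 by level. The targeted gene Mbnl1 is named as a check of the labels; the marker genes Nppa, Myh7, Tnni1, Cdh5 and Pecam1 fall outside this rule and were named after their values were seen. The 50-nt bins of exon 23, the deepest bases and the match between pumps were chosen after values were seen. The labels give C57BL/6, while the methods name a mixed C57BL/129 background for the compound knockouts.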

Additional observations from a re-analysis of the deposited data

How the results depend on the processing

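The ratio of Atp2a1, 2.42 as reported, stayed above 1 under all 14 alternatives and that of Atp2a2, 3.36, under all 14, but its size depended on the setting. For Atp2a1 it was 3.36 with raw tags, 1.36 when scaled by the median pooled cluster, 1.65 without tags of mostly the same base, 1.41 with tags of at least 2 reads, 1.19 with both of these, 4.11 with Mbnl1 KO thinned to as many reads as WT, 8.56 with tags of at least 30 nt and 1.18 with tags under 30 nt, both scaled to tags of that length. The share of compared genes at or past 2, 41.6% as reported, moved as well. It was 62.9% with raw tags, 13.3% when scaled by the median pooled cluster, 60.1% with Mbnl1 KO thinned and 66.8% with tags of at least 30 nt. For Atp2a2 the ratio rose to 4.67 with raw tags, 5.97 with Mbnl1 KO thinned and 5.46 with tags of at least 30 nt. The interval of Atp2a1 reached below 1 with the 1.19 and the 1.18, and that of Atp2a2 when scaled by the median cluster (1.89), with tags of at least 2 reads (2.31), with these and no tags of mostly the same base (1.94) and with tags under 30 nt (2.36). The share of 3′UTR tags in Mbnl1 KO moved from 30.5% to 24.4% when tags with the same 5′ end were collapsed. The 5 genes had 25 clusters of at least 5 tags, 51 of at least 3 and 12 of at least 10. Of 10 alternatives each, the ratio was above 1 in 9 for Atp2a3, 8 for Pln and 0 for Sln, and no interval excluded 1 on either side. Ratios of regions, exons, bins and the 5 genes together without tags of mostly the same base, and settings by reads, by tags under 30 nt and by unique place were chosen after seeing the data. No paired analysis was possible because the mice are merged in 1 table per genotype, and no replicate could be left out. Atp2a3, Sln and Pln had 1 to 9 tags per table, too few for a narrow interval.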
